A study of Arabidopsis thaliana with 16 samples.

Results

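The transcripts described here are those whose signal was higher in seedlings lacking both LHY and CCA1 than in wild-type seedlings at every one of 4 times around dawn. They were chosen by that genotype difference: the mean log2 signal of lhy cca1 had to exceed that of the wild type by 0.5 or more at each time, and the mean signal of the 8 lhy cca1 arrays had to be 40 or more. This selected 153 of 22746 probe sets (0.673%), where a probe set is the group of probes on the array that reads 1 transcript. A single gene was listed for 83 of them, which stand for 82 genes because AT2G30600 was read by 2 probe sets. Several genes were listed for 2 probe sets and none for 68, and these are given by their identifier.

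RNA from whole Arabidopsis thaliana seedlings was hybridised to 16 Affymetrix ATH1 arrays. The wild type was Wassilewskija (WS), and the mutant was lhy-21; cca1-11, a double T-DNA knock-out in WS, written lhy cca1 below. There were 8 groups of 2 arrays: each genotype was taken once in the dark, 15 min ahead of dawn, and in the light 15, 30 and 60 min later. All seedlings were 9 days old (stage 1.02), had 4 days at 4 °C in the dark before growth, and grew at 22 °C on MS agar with 3% sucrose, in 18 h of light at 60 to 65 µE and 6 h of dark. Per the series title, the aim was to find candidate genes for Y, a clock component predicted by modelling that light should induce and LHY and CCA1 should hold down. In whole seedlings, more cells of a type and more RNA per cell cannot be told apart.

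LHY and CCA1 are related MYB-like transcription factors whose transcripts peak around dawn. They bind short elements in the promoters of genes that are normally expressed later in the day and keep those genes low in the morning, and the evening genes in turn act back on LHY and CCA1. GI (GIGANTEA) is a well-known gene of this evening group, acting in the clock and in day-length-dependent flowering. Dawn itself also changes many transcripts, through light signalling and through the return of photosynthetic sugar after the night.

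The genotype labels could not be checked on LHY or CCA1, for which the annotation used here names no probe set. Between the 2 arrays of any group the correlation over probe sets was 0.961 to 0.981. The array medians, averaged within each genotype, were 0.0863 log2 higher in lhy cca1 than in WS. The 4 lhy cca1 arrays of replicate 2 stood apart on a control probe set for 25S ribosomal RNA, with signals of 258 to 569 against 57.7 to 163 on the WS arrays and 62.8 to 253 on the lhy cca1 arrays of replicate 1. Without these 4 arrays the selection gave 109 probe sets, 88 of them among the 153. Of the tissue markers listed for green tissue, root, seed and flower, the root marker PYK10 alone had a named probe set above background, with mean signals of 3735 in WS and 4068 in lhy cca1.

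The size of the genotype difference is the quantity that chose the probe sets, so it is given as a description and without a test. The mean difference over the 4 times had a median of 0.92 log2 among the 153, with quartiles at 0.73 and 1.18 and a measured range from 0.56 to 3.72. The median was 0.86 before dawn, 0.90 at 15 min, 0.82 at 30 min and 0.92 at 60 min. The same limit was asked at each of the 4 times, so nothing is read from the likeness of these medians. Over all 22746 probe sets the median difference was 0.02 for the mean over times and lay between 0.01 and 0.04 at the single times. A difference of 1 log2 or more in the mean was found for 57 probe sets and of 2 or more for 8, and 23 were at least 2-fold higher at every time. Where WS lay below background, as described below, these measured values have an uncertain size and rank.

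The difference was largest before dawn for 39 probe sets, at 15 min for 32, at 30 min for 28 and at 60 min for 54. It was larger at 60 min than before dawn by 0.5 log2 or more for 27 probe sets, smaller by as much for 10 and within that distance for 116. At all 4 times both lhy cca1 arrays lay above both WS arrays for 128 of the 153 (83.7%). The same held for 3.19% of all 22746 probe sets, and nothing is read from this because the same arrays chose the 153. For 73 probe sets the lowest of the 8 lhy cca1 arrays lay above the highest of the 8 WS arrays. The share over all probe sets was not computed for this count, and nothing is read from it either.

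**Figure D1:**
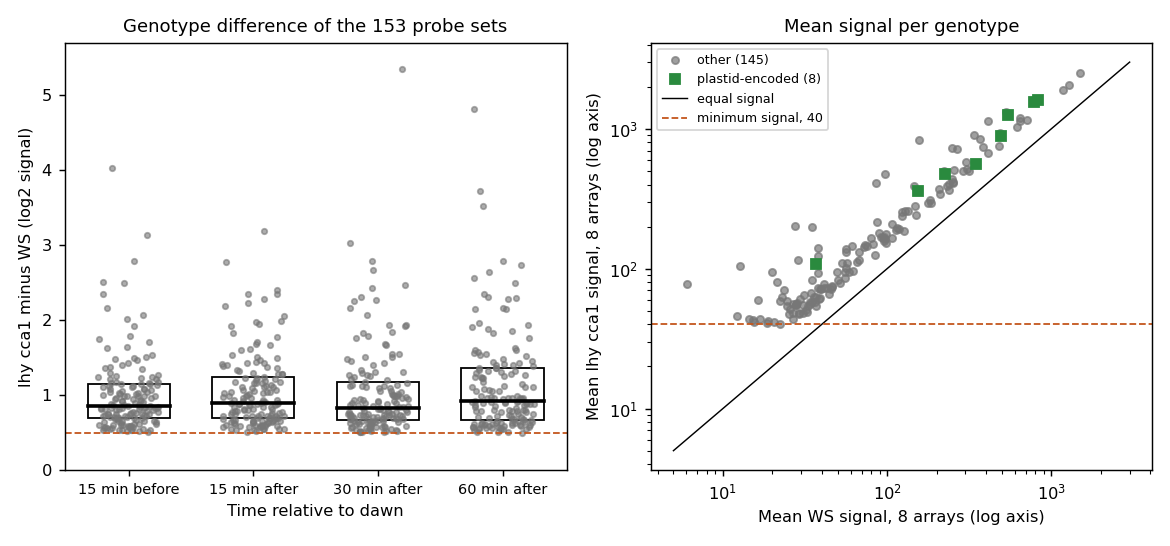
The left panel plots the lhy cca1 minus WS difference in mean log2 signal of each of the 153 probe sets (points) at 4 times, with boxes from the lower to the upper quartile, a bar at the median and a dashed line at the 0.5 used in the selection. The right panel plots the mean signal of the 8 arrays of each genotype on log axes, with plastid-encoded members as green squares: medians lie between 0.82 and 0.92, and the highest point, at 5.35 log2, belongs to 249741_at, which was dim on all WS arrays, so its height is uncertain.

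Both limits of the selection cut through a continuous range. The smallest of the 4 differences was 0.5001 log2 for AT5G18970, 0.505 for AT2G39580 and 0.506 for 244940_at, which were selected. It was 0.4999 for 247525_at and 0.499 for AT3G51660 and for psbK, a photosystem II gene of the plastid, which were not. At the limit on signal, AT4G33985 (40.04), AT1G50060 (40.9) and 261613_at (41.4) were inside, and AT1G52070 (39.4), 254662_at (38.8) and 263981_at (37.9) were outside. A signal was called dim when it lay below the 40th percentile of its array (19.1 to 22.0). All 153 probe sets passed the filter for the tests below, which asked for 2 arrays above that percentile. All 8 WS arrays were dim for 3 of them, some for 40 and none for 110, and at least 1 lhy cca1 array was dim for 4.

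Each replicate taken alone used arrays that had entered the selection, so its direction was largely fixed by it and nothing is read from the following counts. The difference was above 0 at every time in replicate 1 alone for 141 probe sets, in replicate 2 alone for 152 and in both for 140. The selection made on the replicate 1 arrays alone gave 111 probe sets. Of these 111, 104 (93.7%) were higher in lhy cca1 at every time on the replicate 2 arrays. That held for 16% of all probe sets, which include those below the signal limit. These shares are not like for like, and nothing is read from them. The full limits were met in both replicates by 58 probe sets, which is 52.3% of the 111.

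Among clock genes, GI was a member and was read with a steep rise after dawn in both genotypes. Its signals on the 2 WS arrays, replicate 1 first here and below, were 2.21 and 7.98 before dawn, then 9.75 and 6.14 (15 min), 18.9 and 11.4 (30 min), and 80.4 and 92.3 (60 min). In lhy cca1 they were 11.8 and 11.8 before dawn, then 13.4 and 15.0, 54.5 and 57.5, and 361 and 405. The lhy cca1 arrays were the higher ones at each time without overlap, but both genotypes were dim before dawn and at 15 min, where the size of the difference is uncertain. At 30 min, with WS still dim, GI was at least 2.88-fold higher in lhy cca1, and at 60 min it was higher by 2.15 log2. GI was the only 1 of the 15 listed evening clock genes with a named probe set that could be tested. Of 14 listed morning clock genes RVE6 alone was tested, and it was not a member, with a mean difference of 0.02 log2.

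CCL, a transcript known for its short life and its control by the clock, was among the brighter members. In WS it read 425 and 402, 358 and 269, 215 and 187, and 150 and 123 at the 4 times in order. In lhy cca1 it read 735 and 910, 756 and 816, 608 and 666, and 561 and 649. Every lhy cca1 array was above every WS array, and the difference was 0.98 log2 before dawn, 1.34 at 15 min, 1.67 at 30 min and 2.15 at 60 min.

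AT3G62550, of the universal stress protein family, had a mean difference of 2.33 log2 and was not dim on any array. Its WS signals were 159 and 137, 130 and 112, 70.9 and 73.2, and 57.9 and 36.8, and its lhy cca1 signals were 552 and 641, 605 and 619, 433 and 485, and 206 and 250. No lhy cca1 array fell to the level of any WS array. AT1G54410, a small dehydrin of the kind that accumulates in dry or cold tissue, read 461 and 380, 339 and 315, 351 and 363, and 255 and 228 in WS. In lhy cca1 it read 767 and 869, 989 and 991, 809 and 911, and 854 and 1026, again with all 8 arrays above the 8 of WS, and its difference was 0.96 log2 before dawn and 1.96 at 60 min.

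PDC2, a pyruvate decarboxylase of the fermentation pathway, differed by 0.87 log2 before dawn, 1.29 at 15 min, 1.55 at 30 min and 1.42 at 60 min. AT3G15450, a protein of the aluminium-induced family, differed most before dawn, by 1.75 log2, and least at 60 min, by 0.86. Its signals before dawn were 391 and 466 in WS and 1260 and 1646 in lhy cca1, and at 60 min they were 106 and 56.3 in WS and 137 and 143 in lhy cca1. At both times the lhy cca1 arrays were the higher ones.

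The list of sugar starvation and leucine breakdown genes held 14 genes, of which 4 were tested and 2 were members. MCCA encodes a subunit of methylcrotonyl-CoA carboxylase and IVD encodes isovaleryl-CoA dehydrogenase, both enzymes of leucine breakdown in mitochondria. MCCA read 69.0 and 82.1, 85.2 and 83.7, 67.2 and 84.1, and 49.8 and 54.3 at the 4 times in WS, and 172 and 156, 137 and 181, 118 and 169, and 73.0 and 145 in lhy cca1. The arrays did not overlap at any time, although the replicate 1 array of lhy cca1 at 60 min was below several WS arrays of earlier times. IVD differed by 0.84, 0.89, 0.82 and 0.90 log2 from before dawn to 60 min, nearly the same at each time. The other subunit of the carboxylase, MCCB, missed the limit with a mean difference of 0.48, and the kinase subunit gene AKINBETA1 had 0.26. This list came from earlier work on these same data and is given as values only.

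Of 19 listed cold and dehydration genes, 4 were tested and none was a member. Mean differences were 0.78 log2 for LTI30, 0.57 for COR47, 0.52 for COR15B and 0.09 for COR15A. Each missed 0.5 at 1 or more times. LTI30 missed it before dawn, at 0.42, and COR47 before dawn and at 30 min, at 0.38 and 0.44. The differences of COR15B and COR15A were -0.35 and -0.60 log2 before dawn and 1.82 and 1.26 at 60 min. COR15A was dim on at least 1 array of each genotype. The 1 tested shade and auxin gene, HAT2, had a mean difference of 0.61, HYH of light signalling 0.00 and DPE1 of starch breakdown -0.26, and the flowering genes SMZ and SNZ had -0.39 and 0.09. None of these was a member.

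Genes that encode regulators of transcription or chromatin were also among the 153. AT5G61590 encodes an ERF-family factor known as DEWAX, a repressor of cuticular wax synthesis, and differed by 0.81, 1.01, 0.75 and 1.18 log2 at the 4 times. AT5G08520, a MYB-family factor, differed by 0.58 to 0.85. AT2G30600, a BTB/POZ domain protein, was the only gene read by 2 member probe sets, and these gave mean differences of 1.89 and 1.68 log2. The brighter of these read 43.9 and 34.9, 42.2 and 49.8, 36.6 and 41.7, and 23.4 and 32.3 in WS against 131 and 167, 107 and 134, 91.5 and 136, and 82.2 and 129 in lhy cca1. Both probe sets placed all lhy cca1 arrays above all WS arrays. AT2G28720, a histone H2B gene, differed by 0.69 log2 before dawn and by 2.17 at 60 min.

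Several of the largest differences belong to genes to which no role is given here. AT5G62280 had a mean difference of 2.52 log2 as measured, part of it against WS signals below background. It read 34.3 and 30.1, 29.8 and 33.9, 15.2 and 9.76, and 1.19 and 5.95 in WS and 174 and 155, 104 and 140, 31.4 and 82.8, and 29.7 and 41.4 in lhy cca1. The genotypes did not overlap at any time, but WS was dim from 30 min on, where the difference is at least 2.63-fold at 30 min and 1.79-fold at 60 min. AT2G15960 was bright, with WS signals of 518 and 776, 592 and 481, 248 and 282, and 178 and 205 and lhy cca1 signals of 1808 and 1261, 1195 and 1722, 554 and 1447, and 536 and 651. At each time its lhy cca1 arrays were above its WS arrays. AT4G16146 was dim in WS on all 8 arrays and was at least 1.51-fold, 1.56-fold, 1.81-fold and 3.78-fold higher in lhy cca1 from before dawn to 60 min. AT5G60520 was dim on both WS arrays until 30 min, with bounds of 2.27-fold, 2.65-fold and 1.83-fold.

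**Figure D2:**
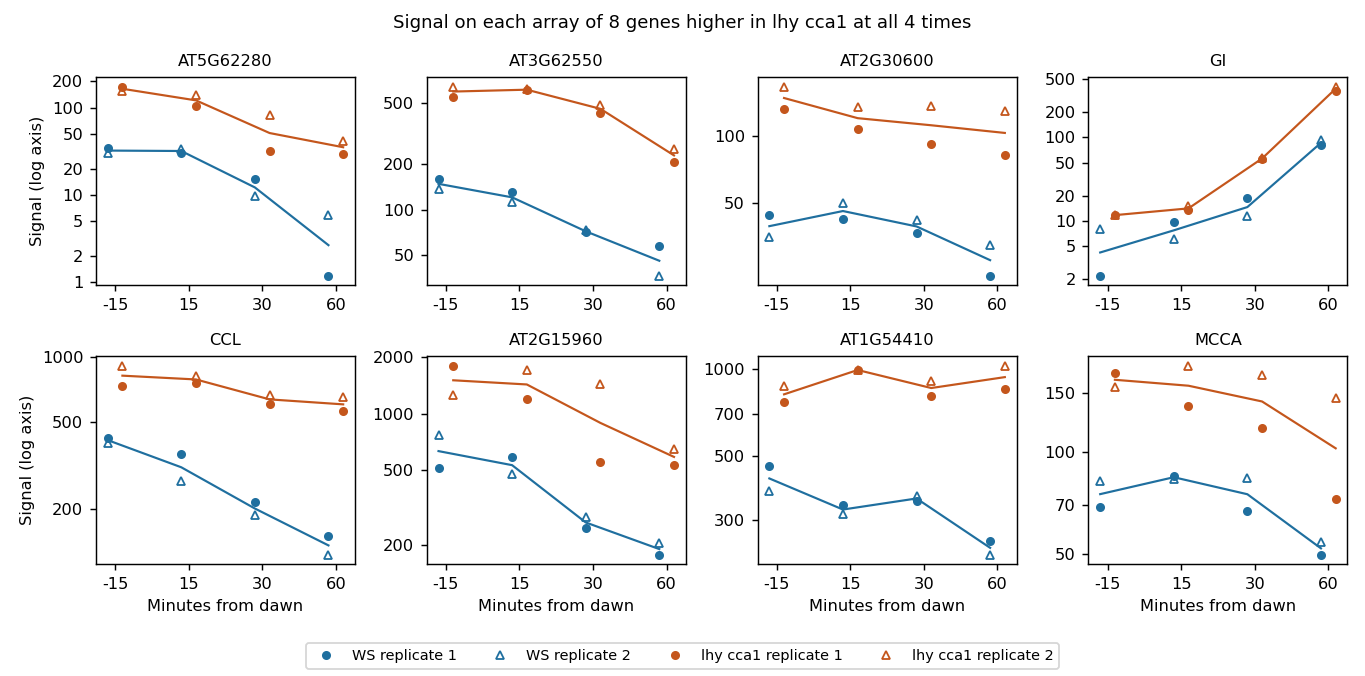
Deposited signal (log axis) of 8 members at 4 times relative to dawn, with filled circles for replicate 1, open triangles for replicate 2 and lines through the geometric mean of the 2 arrays, blue for WS and orange for lhy cca1. At each time the lhy cca1 arrays lie above the WS arrays, while GI climbs from 11.8 to 361 and 405 in lhy cca1 and CCL falls from 425 and 402 to 150 and 123 in WS.

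The members without a single listed gene are given by the 6 with the largest measured mean differences. For probe set 249741_at all 8 WS arrays were dim, so its measured mean difference of 3.72 log2 has no reliable size or rank. Its lhy cca1 signals were 39.3 and 48.0, 38.9 and 27.1, 49.6 and 82.7, and 191 and 145, which put it at least 2.13-fold, 1.62-fold, 3.30-fold and 8.46-fold above WS. Probe set 248910_at had 3.26 log2 as measured, with WS dim on both arrays before dawn and at 15 min, WS signals from 3.63 to 25.6 and lhy cca1 signals from 59.3 to 198. 252415_at had 2.83 log2, 259751_at 2.55, 253161_at 2.38 and 265478_at 2.28. The brightest of these, 253161_at, ranged from 94.9 to 210 in WS and from 511 to 1322 in lhy cca1, without overlap.

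Plastid genes made up 8 of the 83 members with 1 gene (9.64%), against 0.86% of the tested probe sets with a placed gene, while no mitochondrial gene was among the tested named probe sets, so none could be a named member. They were petG of the cytochrome b6f complex, atpF of ATP synthase, psbD and psbC of photosystem II, psaA of photosystem I, and ndhJ, ndhK and ndhE of the plastid NDH complex. psbD and psbC lie next to each other in the plastid genome, as do ndhJ and ndhK, so their transcripts are not separate cases. Mean differences ran from 0.69 log2 for ndhE to 1.197 for atpF. For petG, dim on 6 WS arrays and 2 lhy cca1 arrays, the measured mean of 1.67 log2 is of uncertain size. It was at least 2.1-fold higher in lhy cca1 at 30 min. At 60 min 1 of its lhy cca1 arrays was dim and 1 brighter, so that no fold is given. All 69 tested plastid probe sets had a median mean difference of 0.38, and 24 of them had 0.5 or more.

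The plastid members varied more between arrays of 1 genotype than the other members did. Their mean log2 signal was 7.78 ± 0.195 in WS replicate 1, 8.42 ± 0.444 in WS replicate 2, 8.70 ± 0.808 in lhy cca1 replicate 1 and 9.55 ± 0.427 in lhy cca1 replicate 2 (SD over 4 times). For the other 145 members the same means were 6.09 ± 0.146, 6.07 ± 0.204, 7.08 ± 0.155 and 7.21 ± 0.0700. The 25S control lay at 6.80, 6.34, 6.79 and 8.74 log2 in the same order, so the arrays highest in plastid members included those highest in ribosomal RNA. The part of this in the plastid differences was not tested. The median difference of the 8 plastid members was 0.77 log2 within replicate 1 and 1.13 within replicate 2, and that of the other members was 0.84 and 0.98.

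petG shows how far single arrays can move. It read 10.0 and 112, 10.2 and 113, 17 and 12.4, and 11.6 and 9.28 in WS and 14.3 and 167, 198 and 273, 61.8 and 27.0, and 12.5 and 116 in lhy cca1. In 4 groups 1 array read under 15 and the other over 100, and the genotypes overlapped before dawn. Within replicate 1, psbC was lower in lhy cca1 at its lowest time, by -0.29 log2, and atpF by -0.11.

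**Figure D3:**
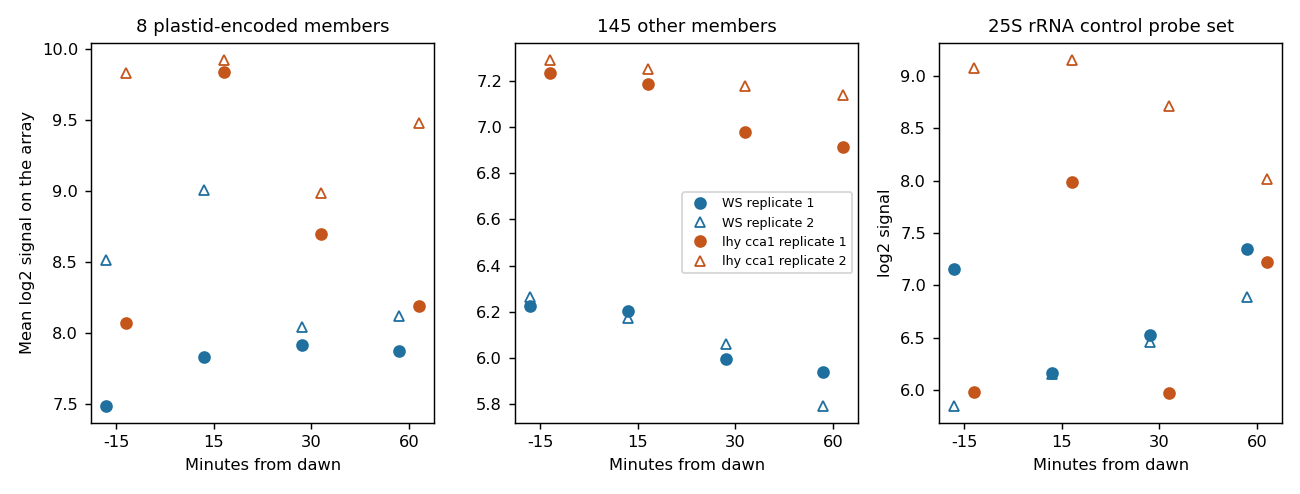
Mean log2 signal of the 8 plastid-encoded members (left) and the 145 other members (middle), and log2 signal of the 25S ribosomal RNA control probe set (right), on each of the 16 arrays against minutes from dawn, with filled circles for replicate 1 and open triangles for replicate 2. The vertical axes of the panels differ. All 8 lhy cca1 arrays exceed all 8 WS arrays for the other members. The selection on these same arrays largely fixed this separation, and nothing is read from it. For plastid members the genotypes overlap, and the 4 lhy cca1 replicate 2 arrays are the highest ones in the 25S panel.

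The remaining nuclear members are varied in what they encode. To account for them, some are named here after their values were seen: AT3G02480 of the late embryogenesis abundant family (mean difference 1.13 log2), the glutaredoxin AT5G18600 (1.02), the jacalin-related lectins AT1G52060 (0.92) and AT5G28520 (0.70), AT3G04550, a Rubisco accumulation factor (0.83), UGT73B1, a glucosyltransferase (0.72), and the subtilase SBT4.12 (0.70). AT1G52070, named above as just under the signal limit, is also a jacalin-related lectin gene. Within replicate 1 the difference of AT3G02480 was -1.49 log2 at its lowest time, and it was higher in lhy cca1 at all times in replicate 2. Named members lay on all 5 nuclear chromosomes, with 17, 8, 13, 13 and 24 on chromosomes 1 to 5, or 20.5%, 9.64%, 15.7%, 15.7% and 28.9% of named members against 25.7%, 14.6%, 20.2%, 14.6% and 23.9% of tested named probe sets.

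The change after dawn within 1 genotype was not used to choose the members, and it was tested with limma across 14878 probe sets, each time against before dawn, at a Benjamini-Hochberg adjusted p under 0.05. The question in the title, for transcripts both induced by light and held down by LHY and CCA1, makes the rises in WS the first count of interest. At 15 min no member rose in WS and 3 fell (1.96%), beside 0.047% and 0.0807% of all tested probe sets. An unadjusted limma p under 0.05 for a rise was found for 8 members. The share over all probe sets was not computed for it, so nothing is read from that count. At 30 min 6 rose (3.92%) and 15 fell (9.8%), beside 0.907% and 1.24%. At 60 min 12 rose (7.84%) and 41 fell (26.8%), beside 3.54% and 5.38%. The same number, 12, rose at 1 or more of the 3 times, beside 3.61% of all.

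In lhy cca1 at 15 min no member rose and 2 fell (1.31%), beside 0.0202% and 0.0605% of all tested probe sets. An unadjusted limma p under 0.05 for a rise was found for 2 members, and again nothing is read from that count. At 30 min 1 rose (0.654%) and 10 fell (6.54%), beside 0.76% and 0.981%. At 60 min 12 rose (7.84%) and 29 fell (19%), beside 4.32% and 5.2%. In both genotypes the members thus fell more often than they rose after dawn, and the median change of the 153 at 60 min was -0.28 log2 in WS and -0.16 in lhy cca1, against -0.04 and -0.01 over all tested probe sets. The 3 later times were compared with the same arrays from before dawn.

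Members are brighter than the average probe set because of the limit on signal. Among the 11139 tested probe sets with a mean lhy cca1 signal of 40 or more, 4.06% rose and 6.29% fell at 60 min in WS, and 4.92% rose and 6.08% fell in lhy cca1. Whichever single array was left out, 26 of the 41 falls and 6 of the 12 rises in WS at 60 min stayed past the threshold, as did 16 of the 29 falls and 4 of the 12 rises in lhy cca1. With the 4 lhy cca1 replicate 2 arrays left out, 2 rises and 18 falls were called in lhy cca1 and 9 rises and 32 falls in WS. The rises in WS at 60 min numbered 7 without WS 60 min replicate 1. The rises in lhy cca1 numbered 6 without lhy cca1 before dawn replicate 2 and 5 without lhy cca1 60 min replicate 2, and the falls 18 without lhy cca1 before dawn replicate 2 and 19 without lhy cca1 60 min replicate 1. At 30 min the 6 rises in WS became 3 without WS before dawn replicate 1 and 2 without WS before dawn replicate 2 or either WS 30 min array. The 1 rise in lhy cca1 at 30 min, that of GI, was lost without either lhy cca1 array from before dawn or 30 min, and became 2 without either WS 60 min array. The 2 falls in lhy cca1 at 15 min became 1 without either lhy cca1 array from before dawn and 0 without either from 15 min.

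Taking both genotypes at 60 min, 27 members fell in both, 14 fell past the threshold in WS but not in lhy cca1, and 2 the other way round. A rise was called in both genotypes for 9, in WS but not lhy cca1 for 3 and in lhy cca1 but not WS for 3. No member was called in opposite directions, and 95 were called in neither. Over all 14878 tested probe sets the falls numbered 439, 360 and 334 in the same order. The rises numbered 350, 176 and 290, while 2 were called in opposite directions and 12927 in neither. Nothing is read from the member counts of 2 and 3. Whether the genotypes differed in these changes was not tested, because that difference is made of the same contrasts that chose the members.

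**Figure D4:**
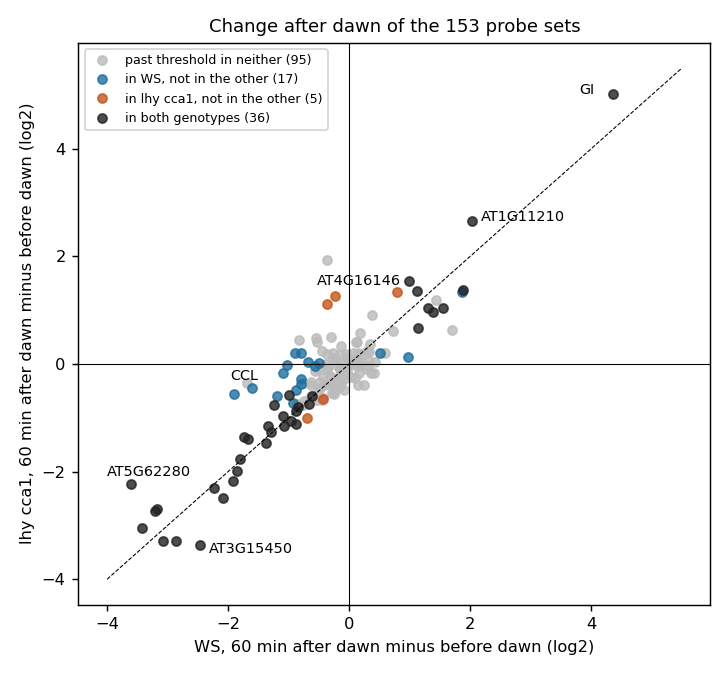
Change in mean log2 signal from before dawn to 60 min after it in WS (horizontal) and lhy cca1 (vertical) for each of the 153 probe sets, coloured by the genotypes in which it passed the adjusted p threshold, with a dashed line of equal change. Most coloured points lie in the lower left along the line, GI is farthest to the upper right at 4.36 and 5.02, and CCL is at -1.61 and -0.44.

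The deepest falls reached more than 2 log2 in each genotype. AT5G61590 (DEWAX) fell as early as 15 min. In WS it read 261 and 211, 81.5 and 80.6, 28.6 and 27.6, and 23.9 and 20.1, and in lhy cca1 482 and 351, 170 and 157, 40.4 and 55.4, and 50.1 and 49.2. The genotypes did not overlap at any time, and the lhy cca1 arrays at 30 and 60 min were at about the same level. The fall in WS was -1.53 ± 0.190 log2 (SE) at 15 min (adjusted p = 0.00204) and -3.42 ± 0.190 at 60 min (adjusted p = 1.12e-08). In lhy cca1 it was -1.33 ± 0.190 at 15 min (adjusted p = 0.0201) and -3.05 ± 0.190 at 60 min (adjusted p = 4.38e-08). The 15 min call in lhy cca1 was lost without lhy cca1 before dawn replicate 1, 15 min replicate 1 or 15 min replicate 2. It was also lost without the 4 lhy cca1 replicate 2 arrays.

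AT4G10910 read 78.1 and 90.1 before dawn and 2.78 and 3.87 at 30 min in WS, and 171 and 172 before dawn and 9.31 and 14.8 at 30 min in lhy cca1. It was dim in both genotypes at 30 and 60 min, and it fell at least 4.32-fold in WS (adjusted p = 6e-08) and at least 8.13-fold in lhy cca1 (adjusted p = 7.66e-07) by 30 min. AT3G15450 fell by 2.47 log2 in WS (SE 0.250, adjusted p = 6.14e-06) and by 3.36 in lhy cca1 (SE 0.250, adjusted p = 2.41e-07) at 60 min. AT5G62280 fell in WS to a dim signal, at least 1.64-fold (adjusted p = 0.000275), and fell by 2.22 log2 in lhy cca1 (SE 0.538, adjusted p = 0.013). Removing either of the lhy cca1 arrays taken before dawn cost AT5G62280 its lhy cca1 call, with changes of -2.14 log2 (replicate 1 removed) and -2.31 (replicate 2 removed). The call also failed when the replicate 1 array of lhy cca1 at 60 min was removed (-1.98 log2). It was lost as well when all 4 lhy cca1 replicate 2 arrays were left out, where the change was -2.55 log2.

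AT5G48490, a lipid transfer protein related to DIR1, was the brightest of the named falling members. It read 1654 and 1618 before dawn and 387 and 533 at 60 min in WS, and 2736 and 2637 before dawn and 625 and 739 at 60 min in lhy cca1, and fell by 1.85 and 1.98 log2 (SE 0.163, adjusted p = 1.36e-06 and 7.05e-07). Its level in lhy cca1 at 60 min was below its level in WS before dawn. The MYB-family gene AT5G08520 fell by 1.80 log2 in WS and 1.77 in lhy cca1 (SE 0.187, adjusted p = 8.03e-06 and 7.65e-06), and AT3G62550 fell by 1.68 and 1.39 (SE 0.183, adjusted p = 1.3e-05 and 7.12e-05). AT2G46220, with lhy cca1 signals of 591 to 1360, fell by 0.95 and 1.05 (SE 0.137, adjusted p = 0.000184 and 6.53e-05).

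AT2G15960 fell by 1.73 log2 in WS (SE 0.321, adjusted p = 0.00188) and 1.35 in lhy cca1 (adjusted p = 0.0114), and the lhy cca1 call was lost without lhy cca1 before dawn replicate 1 (adjusted p = 0.118) or 60 min replicate 1 (0.0991). AT1G75190 fell at least 2.09-fold in WS, where it was dim at 60 min (adjusted p = 0.000692), and by 1.15 log2 in lhy cca1 (SE 0.221, adjusted p = 0.00239). Its lhy cca1 call was lost without lhy cca1 before dawn replicate 2. It was also lost without the 4 lhy cca1 replicate 2 arrays, where the change was -0.81 log2. Of the probe sets without a single gene, 265478_at fell by 1.09 and 0.96 log2 (SE 0.168, adjusted p = 0.000366 and 0.00101). Its lhy cca1 call was lost when all 4 lhy cca1 replicate 2 arrays were left out (adjusted p = 0.0614).

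CCL and the dehydrin gene AT1G54410 were among the 14 that fell in WS and were not called in lhy cca1. CCL fell in WS by 1.04 log2 by 30 min (SE 0.159, adjusted p = 0.00104) and by 1.61 in all (adjusted p = 4.69e-06) when 60 min had passed, while its change in lhy cca1 at 60 min was -0.44 (adjusted p = 0.105). AT1G54410 fell by 0.80 in WS at 60 min (SE 0.135, adjusted p = 0.000861) and its change in lhy cca1 was 0.20 (adjusted p = 0.462). The probe set 259751_at had a lower signal at 30 min in both genotypes, by 1.5 log2 in lhy cca1 (SE 0.297, adjusted p = 0.0101) and at least 2.16-fold in WS (adjusted p = 0.0101), and at 60 min its changes were -0.13 and -0.35. The WS call was lost without WS before dawn replicate 2 or WS 30 min replicate 2. The lhy cca1 call was lost without lhy cca1 before dawn replicate 1 or 2 or 30 min replicate 1. It was also lost without the 4 lhy cca1 replicate 2 arrays.

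GI rose farthest of all members. At 60 min the rise from a dim signal was at least 4.23-fold in WS (adjusted p = 4.8e-06) and at least 17.9-fold in lhy cca1 (adjusted p = 1.16e-06). At 30 min GI was at least 2.62-fold above before dawn in lhy cca1 (adjusted p = 0.00824), and in WS it passed the threshold (adjusted p = 0.0379) with both groups dim, so that no fold is given. The WS call at 30 min was lost under removal of any of 9 arrays. These were WS before dawn replicate 1, WS 30 min replicates 1 and 2, and both lhy cca1 replicates at 15, 30 and 60 min. That WS call was also lost with log2 of intensity plus 16, with no filter and with no intensity trend. The same happened with WS arrays alone and without the 4 lhy cca1 replicate 2 arrays. The lhy cca1 call at 30 min was lost without either lhy cca1 array from before dawn or from 30 min. It was also lost without the 4 lhy cca1 replicate 2 arrays.

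AT1G11210 rose at 60 min from a dim signal in both genotypes, from 7.65 and 7.55 to 38.9 and 24.9 in WS and from 14.1 and 19.7 to 102 and 108 in lhy cca1. The rise was at least 1.53-fold in WS (adjusted p = 0.00145) and at least 4.92-fold in lhy cca1 (adjusted p = 0.000107). AT3G60520 read 38.8 and 36.1, 50.9 and 38.7, 77.9 and 67.1, and 110 and 77.9 in WS and 64.0 and 69.1, 71.9 and 72.9, 109 and 110, and 139 and 136 in lhy cca1. It rose by 1.31 log2 in WS (SE 0.183, adjusted p = 0.000145) and by 1.05 in lhy cca1 (adjusted p = 0.00103), the latter lost without the 4 lhy cca1 replicate 2 arrays (adjusted p = 0.0797). Of the members with a single listed gene, AT3G60520 and GI were past the threshold for a rise in WS at 30 min. AT3G60520 rose there by 0.95 log2 (adjusted p = 0.00815). That call was lost without WS 30 min replicate 1 or WS before dawn replicate 2. It was also lost without the 4 lhy cca1 replicate 2 arrays, and when WS arrays alone were fitted.

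AT1G70420 rose by 0.99 log2 in WS (SE 0.265, adjusted p = 0.0262) and 1.54 in lhy cca1 (adjusted p = 0.000925). The WS call was lost without WS 60 min replicate 1 (a rise of 0.64 log2) or WS before dawn replicate 2 (0.70). It was also lost with no filter, and when WS arrays alone were fitted. Both the WS and the lhy cca1 call were lost without the 4 lhy cca1 replicate 2 arrays. ATSBT5.2, a subtilase, rose by 0.97 log2 in WS (SE 0.265, adjusted p = 0.0284), and its change in lhy cca1 was 0.12. Its WS call was lost without WS before dawn replicate 1 (a rise of 0.74 log2) or WS 60 min replicate 1 (0.57). It was also lost with no intensity trend, with WS arrays alone, or without the 4 lhy cca1 replicate 2 arrays.

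A rise in lhy cca1 and none past the threshold in WS was called for PDC2, AT2G28720 and AT4G16146. All these calls were lost without the 4 lhy cca1 replicate 2 arrays, where the rises were 1.40, 0.68 and 0.89 log2 in that order. PDC2 read 41.4 and 55.1, 45.2 and 38.5, 46.7 and 46.5, and 116 and 59.4 in WS and 96.8 and 78.7, 120 and 86.5, 156 and 119, and 255 and 193 in lhy cca1. It rose by 1.34 log2 in lhy cca1 (SE 0.269, adjusted p = 0.00323), and its change in WS was 0.80 (adjusted p = 0.0794). The lhy cca1 call was lost without lhy cca1 60 min replicate 1 (adjusted p = 0.0544). AT2G28720 rose by 1.12 in lhy cca1 (SE 0.292, adjusted p = 0.0213), lost without lhy cca1 before dawn replicate 2 (0.176) or 60 min replicate 2 (0.197), and changed by -0.37 in WS (adjusted p = 0.517). AT4G16146 rose by 1.27 in lhy cca1 (SE 0.286, adjusted p = 0.00769), lost without the same arrays (0.11 and 0.0748), while WS was dim throughout.

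The other rises belong to probe sets without a single listed gene. Among them 248910_at rose in WS at 30 min, from 3.63 and 4.12 to 21.3 and 25.6, which is at least 1.15-fold from a dim signal (adjusted p = 0.00085). This was the 1 rise of the 6 in WS at 30 min that stayed past the threshold whichever single array was left out, and it was lost when arrays of 1 genotype only were fitted (adjusted p = 0.0596). The same probe set was called at 60 min in WS (adjusted p = 0.00419) and in lhy cca1 by 1.39 log2 (SE 0.386, adjusted p = 0.0309). At 60 min in WS 1 array was dim and 1 brighter, so that no fold is given. The 60 min call in WS was lost without WS 60 min replicate 2, with log2 of intensity plus 16, or with WS arrays alone. The lhy cca1 call was lost without any 1 of the lhy cca1 arrays from before dawn or 60 min, with no filter, or with no intensity trend. The lhy cca1 call was also lost without the 4 lhy cca1 replicate 2 arrays, where the rise was 1.03 log2.

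**Figure D5:**
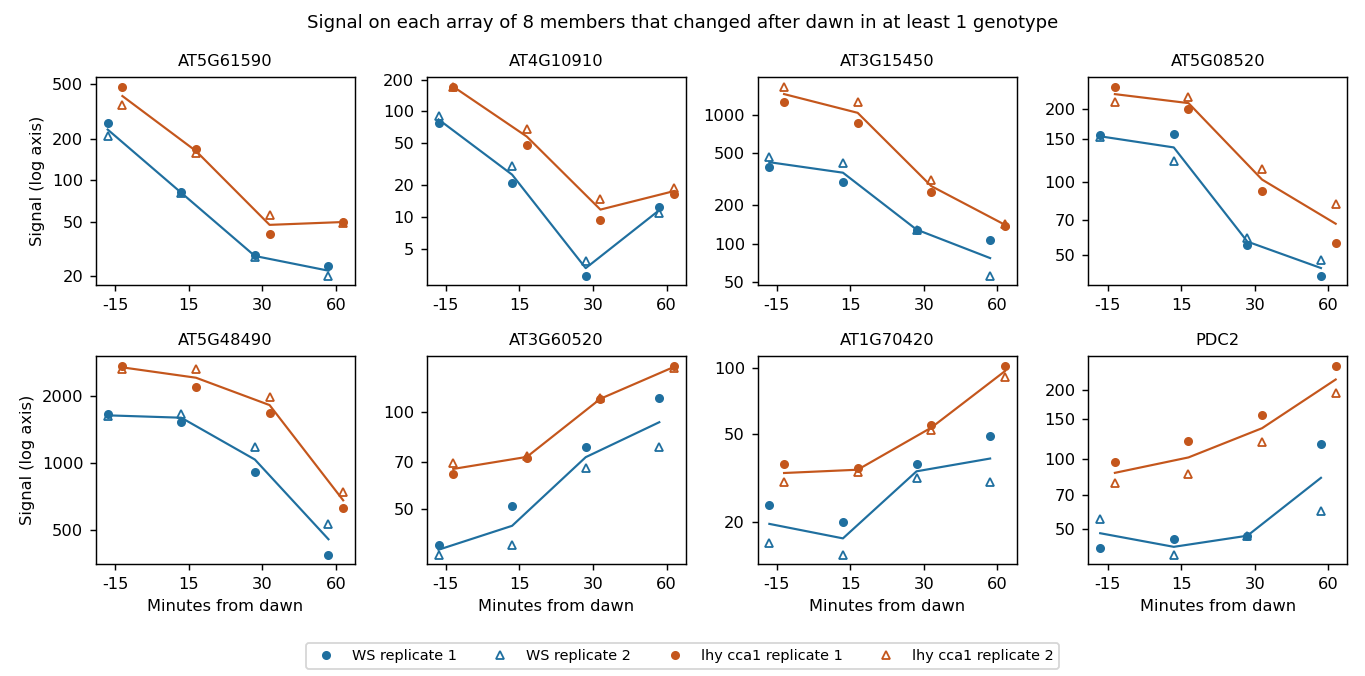
Deposited signal (log axis) on each array of 8 members that passed the threshold for a change after dawn in at least 1 genotype, with filled circles for replicate 1, open triangles for replicate 2 and lines through the geometric mean, blue for WS and orange for lhy cca1. AT5G61590, AT4G10910, AT3G15450, AT5G08520 and AT5G48490 decline in both genotypes, and AT3G60520, AT1G70420 and PDC2 reach their highest signals at 60 min.

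The listed genes that were no members also changed after dawn in places. RVE6 rose at 60 min by 0.88 log2 in WS and 1.07 in lhy cca1, and AKINBETA1 fell by 1.96 and 2.34. Of the 4 tested cold and dehydration genes, 3 rose in lhy cca1 at 60 min and none in WS, with the difference between genotypes not tested, and 1 flowering and 1 light signalling gene rose in both. These calls of non-members were not repeated with single arrays left out. MCCA and IVD, the leucine breakdown members, were not called in either genotype, with changes at 60 min of -0.53 and -0.14 in WS and -0.67 and -0.09 in lhy cca1. Of the 69 tested plastid probe sets 2 rose at 60 min in WS and none of the 8 plastid members was called at any time.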

How the data were processed

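The deposited values are intensities on a linear scale, 1 value per probe set and array, computed with MAS5 and GCOS per the submitters' processing notes (versions: not given in the sources used here). Labelling was by the one-cycle biotin protocol, per the labels' protocols. Of 22810 rows, 64 controls (0.281%) were left out. Array medians were 33.6 to 38.3. Nothing in the labels ties replicates to separate cultures; the spread behind each p-value is that between 2 samples of a group and may be technical, and 2 arrays per group limit the precision.

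Values were taken to log2 with no offset. Probe sets above their array's 40th percentile on at least 2 arrays (14878) were fitted with limma 3.58.1 in R 4.3.3: 8 group means over 16 arrays, eBayes with an intensity trend, 8 residual degrees of freedom, 2-sided tests, Benjamini-Hochberg adjustment over all tested probe sets. On simulated data the fit called 52 to 68% of planted 2-fold changes and 89 to 98% of 4-fold ones. A change that was not called may therefore still be present. Where a group was dim on all arrays, a fold is a bound, computed from the brighter mean and, per array, the percentile or the dim signal if higher. Genotype differences chose the members and were not tested.

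Of all probe sets the annotation table gives 13513 a single gene, 503 several and 8730 none; 13436 matched the TAIR10.1 gene table. No build is named in the files, so no coordinates are given. The planned promoter motif search was not run, since no promoter sequence was used here.

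The members and the gene lists were chosen with earlier results of these data known. Named members were the 14 largest mean differences with 1 gene, up to 10 largest rises and falls at 60 min per genotype, rises in WS at 15 or 30 min, members on a list, the 3 probe sets on each side of each limit, and the 6 largest differences without a single gene; other members named for their role are said to be so. Alternatives were quantile normalization, median centring, an offset of 16, no filter, no trend, arrays of 1 genotype, a replicate block, each array left out in turn, and the 4 lhy cca1 replicate 2 arrays left out.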

Additional observations from a re-analysis of the deposited data

Results flagged for a closer look

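AT4G16146 is given because the signs of its measured changes differ between the genotypes: from before dawn to 60 min its mean log2 signal differed by -0.23 in WS and by 1.27 in lhy cca1. WS was dim on all 8 arrays, so its value has neither a reliable size nor a reliable direction, and no opposite movement can be read from it. The difference between the genotypes was not tested.

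The 25S ribosomal RNA control probe set, which no comparison uses, was higher in lhy cca1 than in WS by 1.196 log2 in the mean over all arrays, a signal above the level of the wild-type arrays. It was 8.74 log2 on the lhy cca1 replicate 2 arrays and 6.79 on those of replicate 1, against 6.80 and 6.34 in WS.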

How the results depend on the processing

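The number of probe sets selected was 98 with each array centred on its median and 92 with log2 of intensity plus 16; with the rule itself changed it was 358 with no signal minimum and 23 with 1 log2 asked at each time. It was 132 after quantile normalization (127 shared), 111 from replicate 1 alone, 188 from replicate 2 alone, and 118 to 169 with 1 array left out. Rises in WS at 30 min numbered 3 with no intensity trend, 2 without the 4 lhy cca1 replicate 2 arrays and 1 with arrays of 1 genotype only. Falls in lhy cca1 at 15 min numbered 0, 0 and 1 under the same 3 settings. Rises in lhy cca1 at 30 min numbered 2 with the offset of 16, 2 with a replicate block, 0 without the 4 arrays and 2 with 1 genotype only. Rises and falls in lhy cca1 at 60 min numbered 2 and 18 without the 4 arrays. With 1 array left out, where the lone array is assumed to vary like the other groups, rises and falls in WS numbered 0 to 0 and 2 to 4 at 15 min, 2 to 6 and 11 to 20 at 30 min, and 7 to 14 and 28 to 42 at 60 min, with 8 to 15 rises at any time. In lhy cca1 they numbered 0 to 0 and 0 to 2, 0 to 2 and 9 to 13, and 5 to 14 and 18 to 31. The causes were not tested. Labels do not say that a replicate number marks a shared batch, so arrays were treated as sharing a number only. Deviations of same-numbered arrays correlated at 0.0265 to 0.218 within WS and 0.0860 to 0.269 within lhy cca1. Between genotypes they correlated at -0.0163 to 0.137. An effect shared by same-numbered arrays of 1 genotype was not tested. With the replicate block 14 members rose and 44 fell in WS at 60 min and 16 and 32 in lhy cca1. Of the dawn changes of named members, 285 values in settings other than leaving out 1 array stayed on their side of the threshold and 19 lost it, and no result reversed. That tally covers calls at 60 min only, and calls at 15 and 30 min are not in it. Under the offset of 16 the mean genotype difference moved by more than 1 SD for 17 of the 32 named probe sets, so their sizes depended on that setting. The remaining 111 values, over all such settings, moved by less. Signals near the 40th percentile limit what can be read for the 3 members dim on all WS arrays and the 40 dim on some.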
